A study of Homo sapiens with 20 samples.

Results

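The sine oculis homeobox genes SIX2, SIX3, SIX4 and SIX6 were described through the contacts that poised-enhancer capture found at them. A contact has a bait (the captured fragment) and an other end (the fragment or run of fragments ligated to it, called a fragment below). It was taken as a contact of these genes where either end overlapped the gene body on GRCh38 widened by 1 kb. Both ends also had to lie on the same chromosome. This gave 159 listed contacts of the 182303 within chromosomes, with 13 at SIX2, 37 at SIX3, 36 at SIX4 and 76 at SIX6. Of these, 3 touched both SIX2 and SIX3 and were counted once in sums over the family. Every listed contact has a score of 5 or more in at least 1 condition, and the genes were chosen with contact numbers of these conditions known. The counts at them are therefore given as a description, without a test.

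Poised Enhancer Capture Hi-C enriches Hi-C ligation products, cut with DpnII, for fragments that hold poised enhancers, which carry marks of enhancers together with those of Polycomb repression. The human embryonic stem cell line HNES1 was maintained in the naive state on mouse feeder cells with PD0325901, LIF, Gö6983 and XAV939, and was then moved to N2B27 with only XAV939 added and harvested after 1, 3, 5, 7, 10 and 14 days, when it counts as primed. Day 14 cells were also taken to definitive endoderm (DE), with Activin A, CHIR99021, FGF2, PI-103 and BMP4 and later LDN193189, or to neuroectoderm (NE), with A8301 and LDN193189 for 10 days and a sort for CD56 and against EpCAM. H9, an established primed embryonic stem cell line, was grown in mTeSR-E8 without feeders, so line and medium differ together from day 14. Each of the 10 conditions had 2 libraries, which share 1 column of CHiCAGO interaction scores, a measure of how far a contact exceeds the background at its distance. Spread between libraries is thus unknown, read depth is unknown, no condition can be tested against another, and no expression value checks the labelled cell types. Scores of 5 or more counted as calls, and all intervals below are 95% Wilson intervals that cover counting error only. They treat contacts as independent, although many share a bait or an other end, so they may be too narrow.

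The proteins of this family are homeodomain transcription factors that act with EYA and DACH cofactors downstream of or beside PAX genes. SIX3 and SIX6 are closely related and direct forebrain and eye development, SIX2 keeps nephron progenitors of the kidney undifferentiated, and SIX4 acts in muscle, kidney and sensory placodes. In pluripotent cells such developmental genes are typically silent and bound by Polycomb complexes, which also hold distant target genes close to each other in the nucleus.

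Promoter sequence is shown for the members whose start lies in a fragment that made contacts and that RefSeq's promoter table (GRCh38.p14) holds, since these are the stretches at which contacts are described below; SIX3 was not matched. The 250 bases before each start are printed 5′ to 3′ on the gene's strand. That of SIX2 (chr2:45009453-45009702, minus strand) lies in the other-end fragment described below, that of SIX6 (chr14:60508896-60509145, plus strand) in the first of its baits, and that of SIX4 (chr14:60724352-60724601, minus strand) in an other-end fragment. Capitals mark the runs of 10 or more bases that SIX2 and SIX6 share.
SIX2: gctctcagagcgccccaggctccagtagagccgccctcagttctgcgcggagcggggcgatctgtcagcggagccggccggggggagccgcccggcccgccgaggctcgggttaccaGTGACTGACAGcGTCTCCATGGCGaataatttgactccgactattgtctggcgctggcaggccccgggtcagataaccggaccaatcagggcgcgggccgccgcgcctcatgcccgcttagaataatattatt
SIX6: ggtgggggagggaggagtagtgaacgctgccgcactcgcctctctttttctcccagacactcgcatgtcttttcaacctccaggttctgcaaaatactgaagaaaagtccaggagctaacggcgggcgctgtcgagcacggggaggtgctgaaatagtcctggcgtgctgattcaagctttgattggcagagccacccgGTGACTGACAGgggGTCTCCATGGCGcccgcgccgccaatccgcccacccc
SIX4: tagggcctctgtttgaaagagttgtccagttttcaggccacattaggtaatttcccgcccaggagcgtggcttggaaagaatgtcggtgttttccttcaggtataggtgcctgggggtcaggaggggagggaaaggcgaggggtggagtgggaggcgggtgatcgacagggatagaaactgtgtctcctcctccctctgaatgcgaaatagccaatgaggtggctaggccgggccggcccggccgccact
SIX2 and SIX6, on different chromosomes, shared the run GTGACTGACAG, which begins 133 bases before the start of SIX2 and 51 before that of SIX6, and the run GTCTCCATGGCG, which follows after 1 base in SIX2 and after 3 in SIX6. Counting both strands, the first run occurred in 0.0626% and the second in 0.0342% of the 35116 promoters of the table over the same 250 bases, and SIX2 and SIX6 were the only promoters with both on the gene's strand. The SIX4 stretch shared no run of that length with either. The CCAAT box, searched as CCAAT on both strands with overlaps counted, occurred 1 time in SIX2, 2 times in SIX6 and 1 time in SIX4, and 32.0% of all promoters held it. The stretches held 26, 16 and 11 CpG dinucleotides in SIX2, SIX6 and SIX4, against a median of 11.0 over all promoters. GATC, the DpnII site, occurred 1 time in SIX2 and 1 time in SIX4 and was not found in SIX6. These runs were looked for after the contacts were known and are a description of the letters only.

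Summed over its 4 members, the family had few contacts in naive cells and most in both primed states. Not every member had this order. Between naive cells and day 14, calls of SIX6 went from 2 to 20 and those of SIX2 from 0 to 5. SIX3 had 3 in both, and SIX4 had 3 and then 2. Of the family's 159 contacts, 8 were called in naive cells (5.03%, interval 2.57 to 9.61), where 10.0% of all contacts within chromosomes were called. At day 14 the number was 29 (18.2%, interval 13.0 to 25.0), beside 11.2% of all contacts, and in H9 cells it was 31 (19.5%, interval 14.1 to 26.3), beside 13.0%. The intervals of naive cells and of the primed states did not overlap, but the members were chosen on this contrast and nothing is read from it. Between them the counts were 15 on day 1 (background 10.1%), 20 on day 3 (12.4%), 20 on day 5 (11.7%), 10 on day 7 (10.2%) and 17 on day 10 (10.3%), so they did not climb evenly, and day 7 lay near naive cells. DE had 23 calls (14.5%, interval 9.84 to 20.8) beside a background of 16.2%, and NE 24 (15.1%, interval 10.4 to 21.5) beside 17.9%, so both lineages lay at or just under the share of all contacts.

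Counts differed by the side of the contact. With the member gene on the other end and the bait far from it, 40 contacts were listed, and 1 was called in naive cells, 15 on day 14, 12 in H9 cells, 3 in DE cells and 4 in NE cells. With the bait near the gene, 122 were listed, and 7, 15, 22, 20 and 20 were called in the same conditions (3 contacts between members stand on both sides). A pair of baits can also be listed from each of its baits, and it then counts on both sides as separate contacts. On the bait side the shares were 12.3% on day 14, 16.4% in DE cells and 16.4% in NE cells, near those of all contacts in each condition. In naive cells the bait-side share was 5.74% (interval 2.81 to 11.4), beside 10.0% of all contacts. In H9 cells it was 18.0% (interval 12.2 to 25.8), beside 13.0%. On the other-end side the shares were 2.50% in naive cells, 37.5% on day 14 and 30.0% in H9 cells. They were 7.50% in DE cells and 10.0% in NE cells. Intervals were 0.443 to 12.9, 24.2 to 53.0, 18.1 to 45.4, 2.58 to 19.9 and 3.96 to 23.1 in that order. The shares of all contacts were 10.0, 11.2, 13.0, 16.2 and 17.9%. Of the 15 calls on day 14, 7 came from 1 fragment beside SIX6 and 5 from 1 fragment over the SIX2 start. SIX3 and SIX4 had 0 other-end calls on day 14 and in H9 cells. Contacts from bait to bait made up 13.2% of the family's contacts (21 of 159, interval 8.80 to 19.3), against 1.30% of all contacts within chromosomes. Calls in a single condition made up 85.5% (136 of 159, interval 79.2 to 90.2), against 85.8% of all contacts, so the family's contacts recurred about as often as others.

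**Figure D1:**
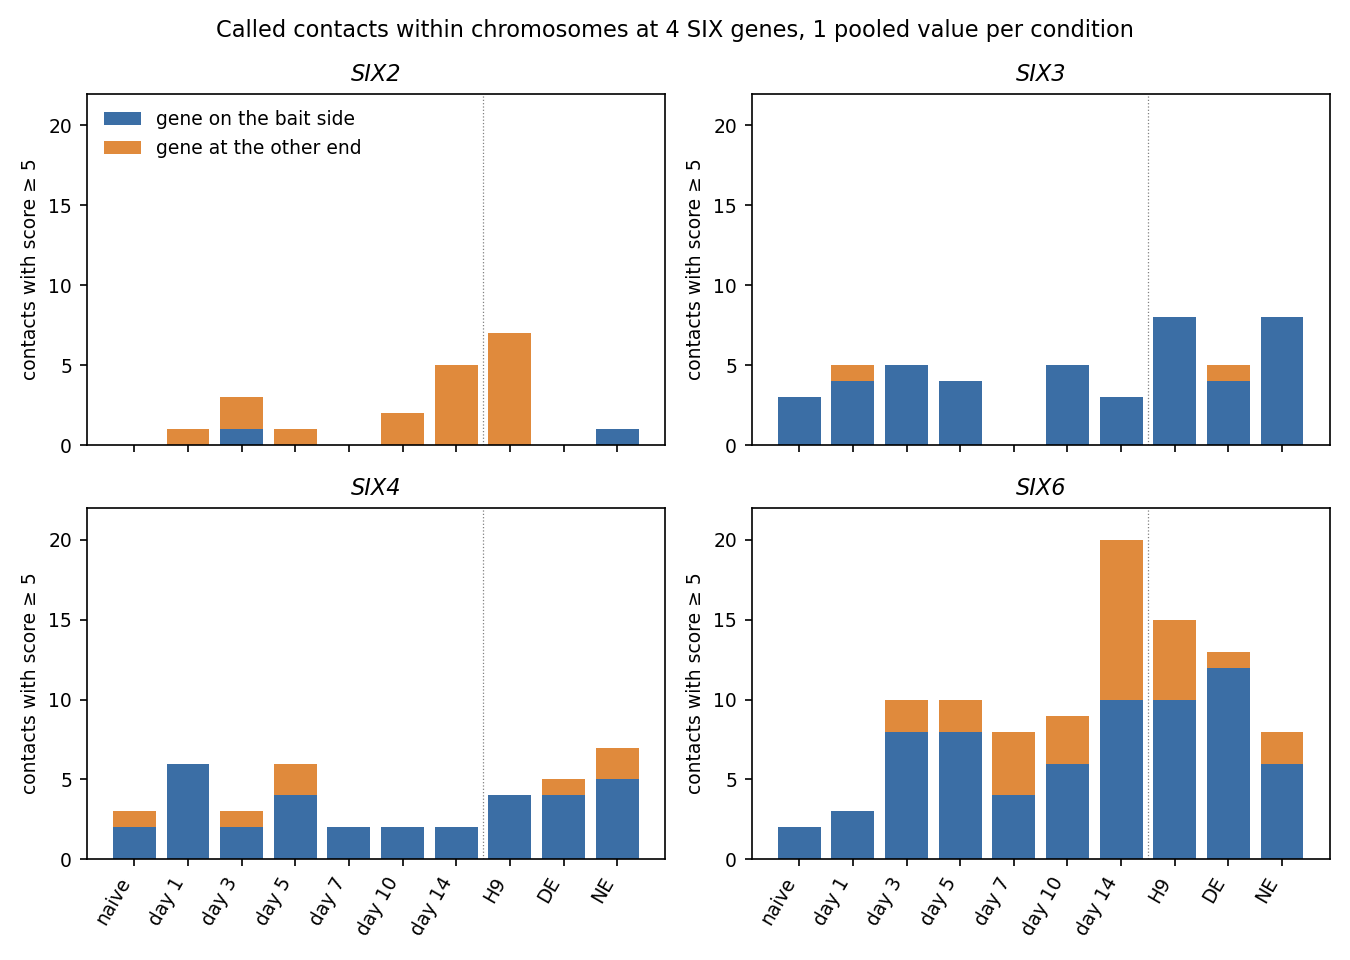
Number of contacts with a score of 5 or more (vertical axis) in each of the 10 conditions (horizontal axis) for SIX2, SIX3, SIX4 and SIX6, with bars split by whether the gene is on the bait side (blue) or at the other end (orange). Each bar is 1 pooled value without an error, and SIX6 on day 14, with 10 on either side, is the tallest. A pair of baits called from both of its baits counts on both sides.

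SIX6 lies on chromosome 14 (60509146 to 60512850) inside the span of C14orf39 (60435956 to 60515544). Its contacts thus cannot be told apart from contacts of the higher-coordinate part of that gene. Its called contacts numbered 2 in naive cells, 3 on day 1, 10 on day 3, 10 on day 5, 8 on day 7, 9 on day 10, 20 on day 14, 15 in H9 cells, 13 in DE cells and 8 in NE cells. Naive cells and day 1 were low, and day 14 stood above every other condition. Per kb of the widened gene, calls were 0.351 in naive cells, 3.51 on day 14 and 2.63 in H9 cells for SIX6, against 0.119 on day 14 for SIX4, 0.471 for SIX3 and 0.797 for SIX2. The other-end counts were 0, 0, 2, 2, 4, 3, 10, 5, 1 and 2 in the same order of conditions.

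The fragment just before SIX6 (60503923 to 60508678), which ends where the first bait of SIX6 begins, took 13 of the 21 other-end contacts of SIX6, each from a different bait. It had 0 calls in naive cells, 7 on day 14, 4 in H9 cells, 0 in DE cells and 1 in NE cells. The day 14 excess of SIX6 over naive cells moved with the window, the threshold and the counting of pairs. It was 18 contacts with the gene widened by 1 kb, and 15 with each pair of fragments counted once. It was 11 with the gene body alone or without contacts from bait to bait, and 2 at a score of 10 or more.

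Towards lower coordinates, in a stretch whose edges were set after the values were seen, 35 listings joined SIX6 over 140 to 306 kb to PPM1A, a phosphatase gene, and the DNA beside it; 8 of the far ends lay in PPM1A and 27 outside any protein-coding gene. Here the counts were 2 in naive cells, 3 on day 1, 6 on day 3, 4 on day 5, 2 on day 7, 3 on day 10, 5 on day 14, 6 in H9 cells, 11 in DE cells and 7 in NE cells. Mean scores were 1.46 in naive cells, 1.88 on day 14, 1.95 in H9 cells, 3.53 in DE cells and 2.87 in NE cells, beside 1.53, 1.66, 1.82, 2.10 and 2.23 over all contacts within chromosomes. DE thus had the most calls on this side, 31.4% of the listings (interval 18.6 to 48.0) beside 16.2% of all contacts. NE had 20.0% (interval 10.0 to 35.9) beside 17.9%. Listing needs a call, so a condition with more calls here has a higher mean by construction. Of the 13 calls of SIX6 in DE cells, 11 lay here, and of the 8 in NE cells, 7 did.

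Within that stretch the fragment at 60345282 to 60350712 was listed with all 5 SIX6 baits, over 161 to 166 kb. From the bait over the SIX6 start (bait 9425) it was called on day 5 (6.75), in H9 cells (7.08) and in DE cells (5.07). From bait 9426 it was called in H9 cells (6.28) and in NE cells (6.70), and from bait 9427 in H9 cells (6.12). From bait 9428 it was called on day 5 (7.17) and in DE cells (6.29). From the bait past the end of SIX6 (bait 9429) it was called on day 1 (6.82), day 3 (6.74) and day 7 (7.01), with 3.49 in naive cells and 1.01 on day 14. From bait 9428 the fragment at 60328591 to 60334056 was called on day 5 (5.19), day 10 (8.50), in H9 cells (5.95) and in DE cells (8.66), with 0.822 on day 14. The neighbouring fragment at 60350713 to 60356004 was called from bait 9429 on day 1 (5.30), day 10 (5.32) and in DE cells (5.75). None of the contacts named so far on this side was called on day 14, and the 5 calls of that day came from other contacts. The highest of them was that of bait 9422 (60327351 to 60328590), which met the fragment before SIX6 with a score of 10.3 on day 14, and between 0.844 and 4.25 in the other 9 conditions. The other 4 scored 7.66, 5.59, 5.48 and 5.11 on day 14.

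SIX2 and SIX3 are neighbours on chromosome 2, with 3 contacts listed between them. Of these, 1 was called on days 3, 5, 10 and 14, and all 3 were called in H9 cells. There were 0 calls on days 1 and 7 and in naive, DE and NE cells. SIX2 spans 45005182 to 45009452 and SIX3 44941702 to 44946071. A single other-end fragment (45005966 to 45010600), which holds the start of SIX2, took all 11 other-end contacts of SIX2, each from its own bait. Calls of SIX2 numbered 0 in naive cells, 1 on day 1, 3 on day 3, 1 on day 5, 0 on day 7, 2 on day 10, 5 on day 14, 7 in H9 cells, 0 in DE cells and 1 in NE cells. Day 14 and H9 were high, and the single call in NE cells came from a bait beside the gene and not from the fragment over its start.

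From SIX3 the strongest contact of this fragment was with bait 16062 (44940090 to 44941088), which covers the lower-coordinate end of the antisense RNA gene SIX3-AS1 and ends 614 bases before SIX3. Its score was 0 in naive cells, 3.32 on day 1, 8.76 on day 3, 8.35 on day 5, 1.37 on day 7, 6.63 on day 10, 6.43 on day 14, 8.58 in H9 cells, 1.07 in DE cells and 0.246 in NE cells. It was called in 5 of the 10 conditions over 67.7 kb, with day 7 as the gap in the series, and it had the largest summed score of any contact of either gene. From inside SIX3, bait 16065 reached the same fragment with 0.847 in naive cells and 6.08 in H9 cells, and bait 16067, just past the end of SIX3, had 0.604 and 6.22, and neither was called elsewhere. The 3 contacts together had mean scores of 0.484 in naive cells, 3.55 on day 14 and 6.96 in H9 cells. In DE cells the mean was 1.45 and in NE cells 0.458. These contacts were listed through calls in conditions other than naive, DE and NE, which favours low means there.

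Other baits also met the start of SIX2. Beyond it, 4 baits outside any protein-coding gene met it over 158 to 164 kb and gave calls 2 times on day 14 and 2 times in H9 cells, and 0 times in naive cells, DE and NE. Bait 16086 had a score of 9.79 on day 14 and 6.30 in H9 cells, against 1.72 in naive cells, 3.34 in DE cells and 2.05 in NE cells. Bait 16087 was called on day 1 (6.14), day 3 (6.39) and day 14 (5.78), and lay just under the threshold on day 7 (4.97). On the SIX3 side, bait 16048 reached 10.1 on day 14 but 3.27 or less in every other condition, so it rests on 1 condition. All 7 listings between SIX2 and the SIX3 side, the longest of them 239 kb, had mean scores of 0.993 in naive cells and 5.33 on day 14. The mean was 5.02 in H9 cells, 1.02 in DE cells and 0.257 in NE cells. Of the 7, 3 were called on day 14, 5 in H9 cells and 0 in naive, DE or NE cells. Listing needs a call, so this order of the means was largely set by the listing, and nothing is read from it.

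**Figure D2:**
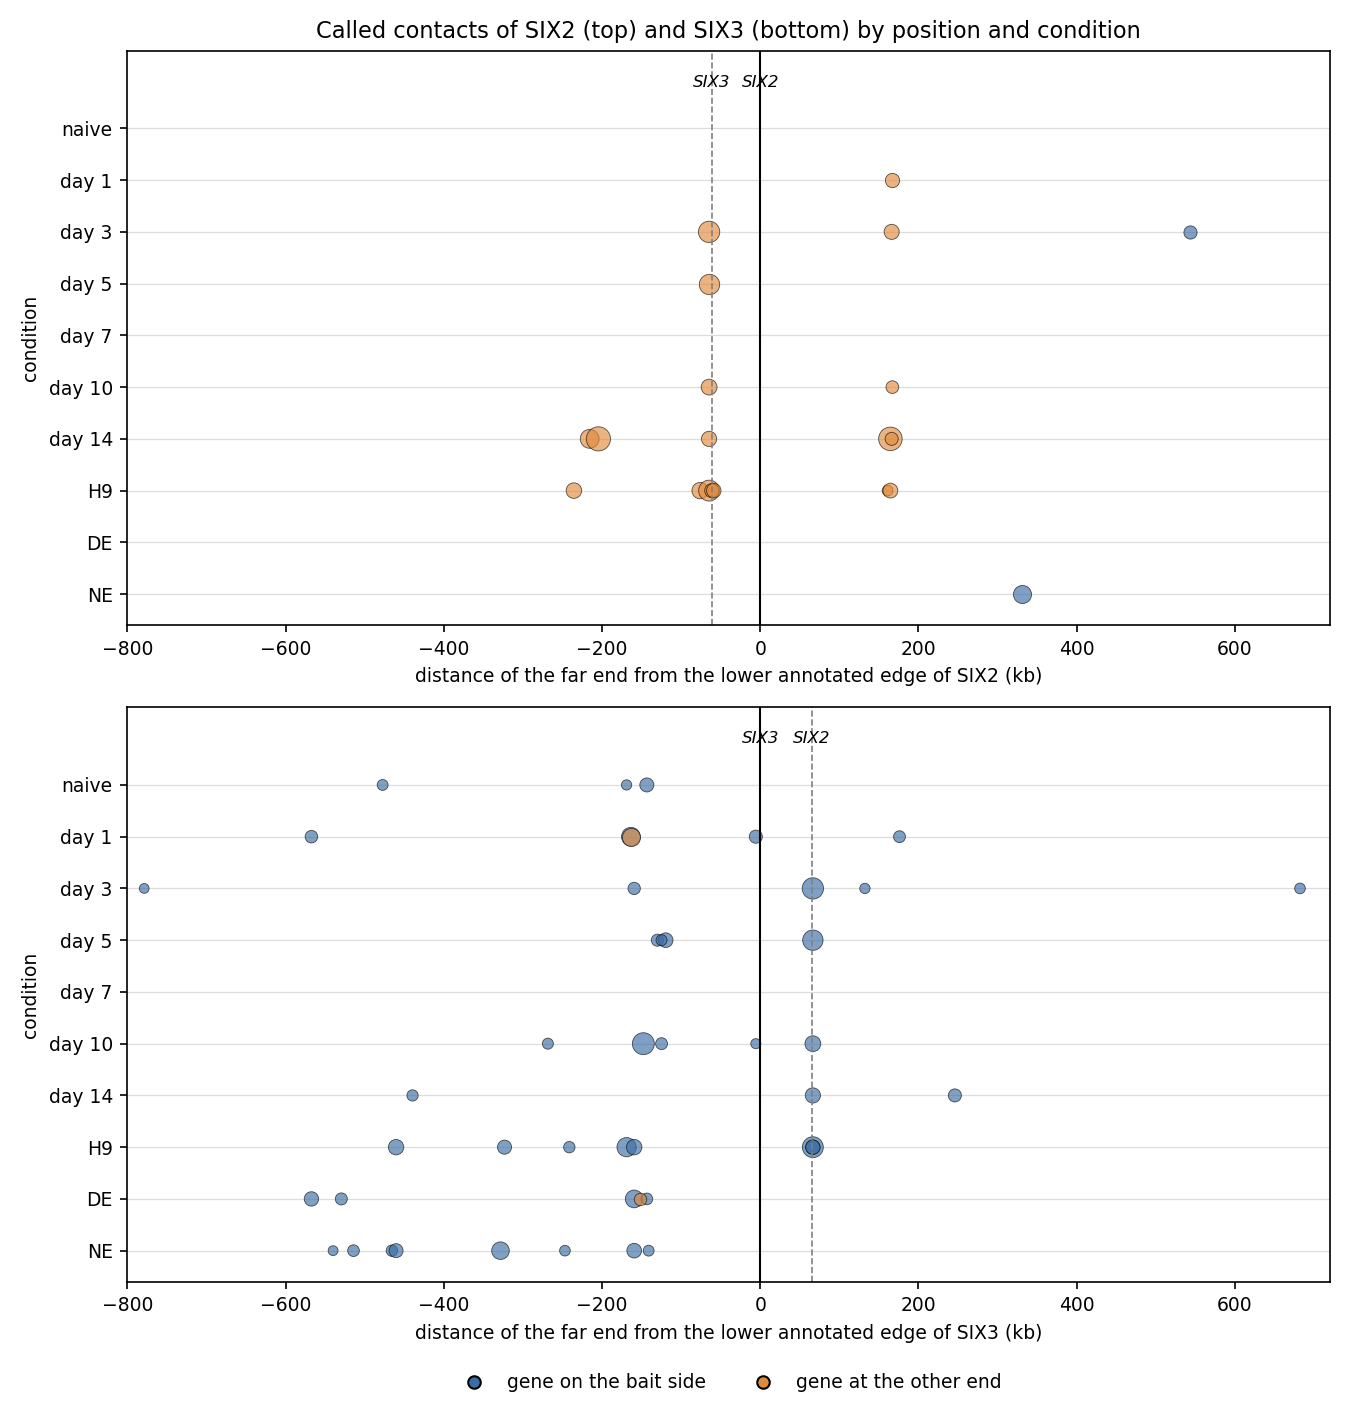
Called contacts of SIX2 (top) and SIX3 (bottom), with the distance of the far end from the lower annotated edge of the gene in kb (horizontal axis) by condition (vertical axis). Points are contacts with a score of 5 or more, their area grows with the score, blue marks the gene on the bait side and orange at the other end, and the dashed line marks the neighbouring member (SIX3 or SIX2). Points on that line appear on days 3, 5, 10 and 14 and in H9 cells, and not in naive cells, DE or NE.

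SIX3 itself showed no such order. Its called contacts numbered 3 in naive cells, 5 on day 1, 5 on day 3, 4 on day 5, 0 on day 7, 5 on day 10, 3 on day 14, 8 in H9 cells, 5 in DE cells and 8 in NE cells. Naive and day 14 cells had the same number. Day 7 had none, and its mean score over the 37 contacts, 0.706, was the lowest of the 10 conditions. Bait 16062 alone gave 19 of the 35 bait-side contacts, and the 4 baits that overlap the gene body gave 8. At the other end SIX3 had only 2 listed contacts, called on day 1 (7.43) and in DE cells (5.63). Contacts away from SIX2, over 118 to 569 kb towards and across CAMKMT, a methyltransferase gene, numbered 28, and 3 were called in naive cells, 1 on day 14, 5 in H9 cells, 5 in DE cells and 8 in NE cells. These are shares of 10.7, 3.57, 17.9, 17.9 and 28.6%, beside 10.0, 11.2, 13.0, 16.2 and 17.9% of all contacts. The intervals of DE (7.88 to 35.6) and NE (15.3 to 47.1) include the shares of all contacts. All 8 calls of SIX3 in NE cells were on this side. The most recurrent of them (bait 16062 with 44779706 to 44785161, 158 kb) was called on day 3 (5.60), in H9 cells (6.50), DE (7.30) and NE (6.25), with 1.65 in naive cells and 1.68 on day 14. A contact of the same bait over 4.41 kb with a fragment in the noncoding gene LINC01833 was called on day 1 (5.81) and day 10 (5.07).

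SIX4, on chromosome 14 (60709539 to 60724351), had the fewest calls of the 4 members on day 14. The numbers were 3 in naive cells, 6 on day 1, 3 on day 3, 6 on day 5, 2 on day 7, 2 on day 10, 2 on day 14, 4 in H9 cells, 5 in DE cells and 7 in NE cells, and 0 of its 36 contacts were called in 3 or more conditions. All 3 baits of SIX4 lie inside the gene. Of the 36 contacts, 25 ran from them towards higher coordinates over MNAT1, a gene of the CDK-activating kinase, and past TRMT5 and SLC38A6 to PRKCH, and these were called 2 times in naive cells, 5 on day 1, 2 on day 14, 4 in H9 cells, 2 in DE cells and 5 in NE cells. In the same order these are shares of 8.00, 20.0, 8.00, 16.0, 8.00 and 20.0%, beside 10.0, 10.1, 11.2, 13.0, 16.2 and 17.9% of all contacts. The strongest (bait 9451 with 60894765 to 60899932 inside MNAT1, 176 kb) had 11.0 on day 1 and 4.87 or less in every other condition.

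The fragment over the start of SIX4 (60721395 to 60726437) had 1 call in naive cells, 1 on day 3, 1 on day 5 and 2 in NE cells, and 0 in the other 6 conditions. No listed contact joined SIX4 with SIX6 under the 1 kb window. Just outside it, the fragment next to the one over the SIX4 start (60726438 to 60733063) was called from SIX6 bait 9427 on day 14 (5.79).

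**Figure D3:**
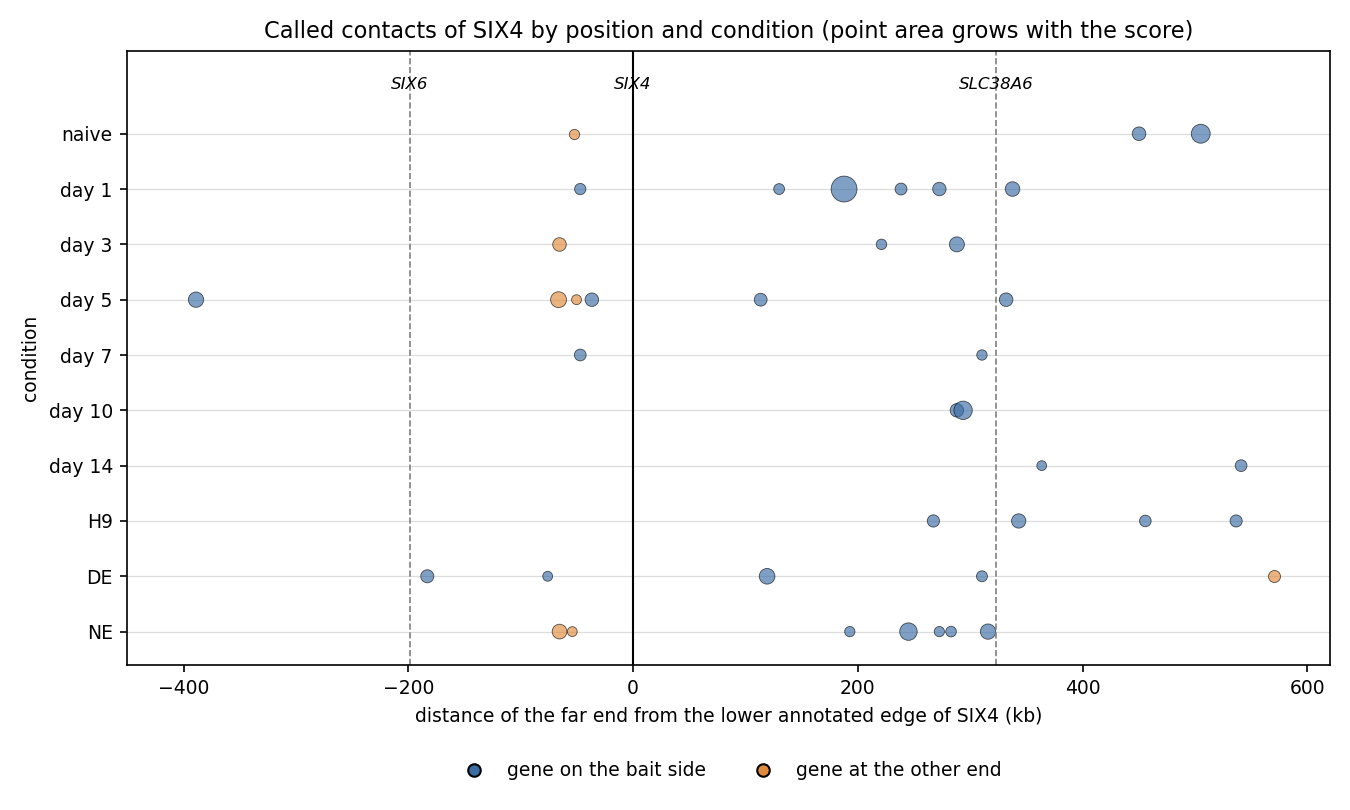
Called contacts of SIX4, with the distance of the far end from the lower annotated edge of SIX4 in kb (horizontal axis) by condition (vertical axis). Points are contacts with a score of 5 or more, their area grows with the score, blue marks SIX4 on the bait side and orange at the other end, and dashed lines mark the middles of SIX6 and SLC38A6. Day 14 has 2 points and NE 7.

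**Figure D4:**
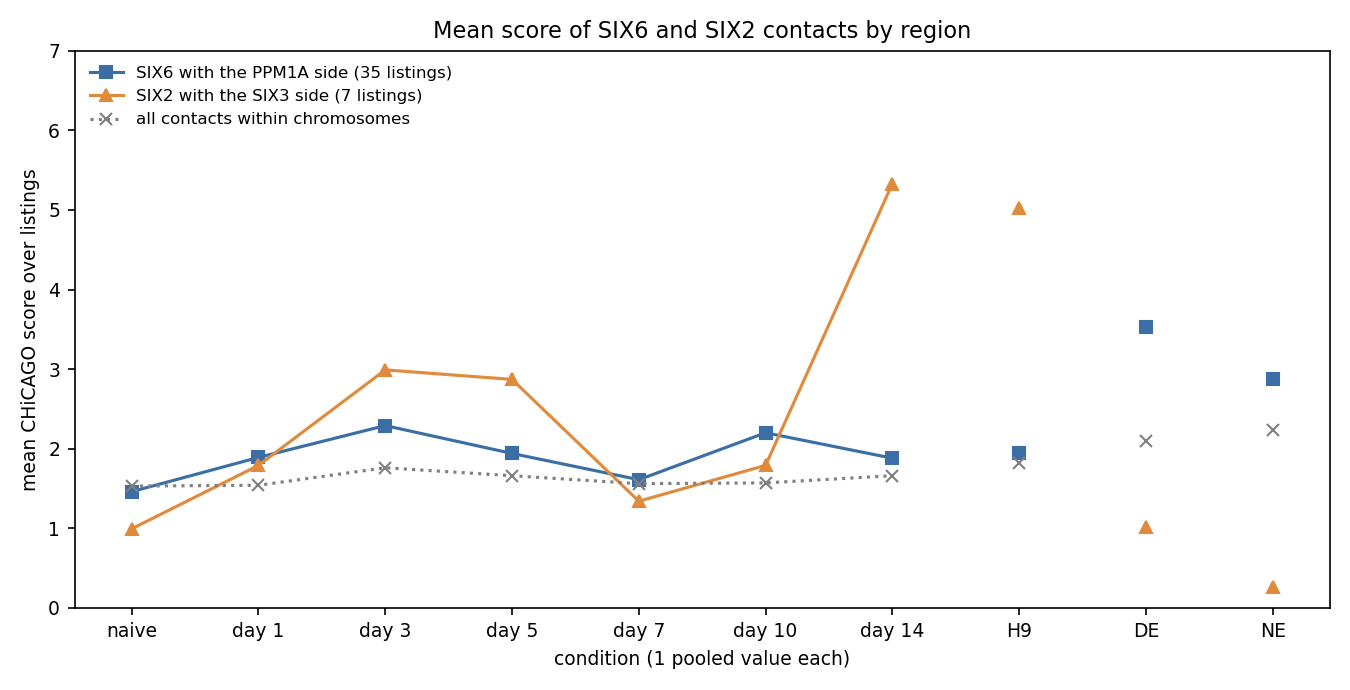
Mean CHiCAGO score (vertical axis) by condition (horizontal axis) over the 35 listings of SIX6 with the PPM1A side, the 7 of SIX2 with the SIX3 side, and all 182303 contacts within chromosomes. Lines join the 7 time points of HNES1, single points are H9, DE and NE, and each point is 1 pooled value. The SIX3 side reaches 5.33 on day 14 and lies at 1.02 in DE cells, while the PPM1A side is highest in DE cells at 3.53. Each listing needs a score of 5 or more in at least 1 condition, so a region's mean rises with its own calls by construction.

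Set beside all 14272 protein-coding genes with a listed contact, the members did not move alike. From naive cells to day 14, SIX6 had 18 more called contacts and SIX2 5 more, SIX3 had no change and SIX4 had 1 fewer. Of all linked genes, 2.63% had 5 or more contacts more and 1.33% 5 or more fewer, and the median change was 0, against 2.5 over the 4 members. A larger gain than that of SIX6 was found at 20 genes and a larger one than that of SIX2 at 249. From day 14 to H9, SIX3 had 5 more, SIX2 2 more, SIX4 2 more and SIX6 5 fewer, where 3.08% of linked genes had 5 or more contacts more and 1.44% 5 or more fewer. The family total differed by 2 between day 14 and H9, and its direction turned at other score thresholds, so the states are not ranked here. For SIX6 the difference was -1 without contacts from bait to bait and -9 with quantile-normalised scores, and for SIX3 it was 1 with the gene body alone and 2 without bait 16062.

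From day 14 to DE, SIX6 had 7 fewer called contacts and SIX2 5 fewer, while SIX4 had 3 more and SIX3 2 more. Of the linked genes, 0.953% had 5 or more contacts fewer in DE cells and 5.51% had 5 or more contacts more, and 31 had a larger loss than SIX6. The median linked gene had 0 calls on day 14, and 90.7% had fewer than the 5 of SIX2. Most genes thus could not lose 5 contacts in either lineage, which keeps the shares with losses low. The difference at SIX6 was -4 with pairs counted once, and -1 with the gene body alone or without contacts from bait to bait. That at SIX2 was -2 with a 5 kb window. With equal numbers of calls in each condition, SIX3 differed by 0 and SIX4 by 1. From day 14 to NE, SIX6 had 12 fewer and SIX2 4 fewer, while SIX3 and SIX4 had 5 more each. Of the linked genes, 0.736% had 5 or more contacts fewer and 7.01% 5 or more more, and 8 had a larger loss than SIX6. The difference at SIX6 was -9 with pairs counted once, -5 with the gene body alone and -6 without contacts from bait to bait. That at SIX2 was 0 with a 5 kb window. With equal numbers of calls or with quantile-normalised scores, SIX3 differed by 0 and SIX4 by 2. All 3 comparisons with day 14 share its column, so a high value there enters each of them. SIX6 had more called contacts than 99.3% of the linked genes on day 14 and more than 91.5% in NE cells, and gene length was not equalised in these placements.

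Partners and relatives of the members, from the network with PAX, EYA and DACH genes and from the eye field, were followed from a list of 16 genes, of which 15 had listed contacts. From naive cells to day 14, 6 had more called contacts, 7 fewer and 2 the same number, with a median change of 0, where 29.0% of all linked genes had more and 25.5% fewer. PAX2, a kidney and eye gene, had 16 and 22, and VAX1, a gene of the ventral eye and forebrain, had 4 and 9. SIX5, on chromosome 19, had no listed contact.

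In H9, 10 of the 15 had more contacts than on day 14 and 3 fewer, with a median change of 1, where 31.4% of all linked genes had more and 24.9% fewer. In DE 12 had more and 1 fewer, with a median change of 3, and in NE cells 10 had more and 3 fewer, with a median change of 2. Over all linked genes, 37.2% had more and 21.4% fewer in DE cells, and 41.6% had more and 19.0% fewer in NE cells. The list genes had a median of 2 calls on day 14, against 0 over all linked genes. These shares thus do not compare genes of like contact number, and nothing is read from their difference. In DE, PAX2 had 61, VAX1 22, EYA1, a phosphatase and cofactor of this family, 14, LHX2, an eye field gene, 11, OTX2, a forebrain gene, 8 and MITF, a pigment cell gene, 5, against 22, 9, 6, 2, 2 and 0 on day 14. In NE, PAX2 had 49, VAX1 15, LHX2 9 and OTX2 7. In H9, PAX2 had 46, VAX1 15, LHX2 8, OTX2 8 and MITF 5.

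Over the 10 conditions, the genes whose called contacts followed those of SIX2 most closely were HOXD11 (Pearson's r 0.96), HOXB13 (0.92) and HOXB4 (0.92), among 3341 genes with at least 20 calls and no contact shared with SIX2. HOXD11 had 2 contacts in naive cells, 10 on day 14, 12 in H9 cells, 4 in DE cells and 5 in NE cells. For SIX6 they were LRFN2 (0.95), LRRC71 (0.92) and HOXD3 (0.88), and HOXD3 had 5 in naive cells, 25 on day 14, 29 in H9 cells, 18 in DE cells and 19 in NE cells. For SIX3 they were FMN2 (0.92), AJAP1 (0.89) and TMEM8B (0.89), and for SIX4 WNT8A (0.88), TTC23 (0.88) and RAB3IL1 (0.87). These are the largest of 3337 to 3342 correlations over 10 values that share the same libraries, and they are given as likeness only.

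Most of these calls lay close to the threshold. Of the 197 calls of the family over all conditions, 108 (54.8%) had a score of 5 to under 6, as did 59.6% of all calls within chromosomes, and 4 reached 10. The lowest score called was 5.01 and the highest not called 4.97. The bait farthest from SIX2 that still counted lay 967 bases from it, and the nearest one left out lay 1149 bases away.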

How the data were processed

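Poised Enhancer Capture Hi-C values of 10 conditions with 2 libraries each were used. The deposited matrix holds 766138 contacts and 1 CHiCAGO score per contact and condition, per the labels, which name the same column for both libraries of a condition, and 0 value columns were left unmatched. The authors computed the score, and aligner, caller version, fragment binning and filters are not given in the sources used here. The median length was 5264 bp for other ends and 629 bp for baits. The other ends over the starts of SIX2 and SIX4 hold a DpnII site, so an other end can span more than 1 DpnII fragment. Coordinates are on GRCh38, per the submitters' processing notes. The lowest row maximum was 5.00, so contacts under that score everywhere are not listed. The deposited distance column, in bp, served for contact lengths.

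Contacts within chromosomes were linked to protein-coding genes of the RefSeq table (GRCh38.p14) by overlap with the gene body widened by 1 kb, and called at a score of 5. Linking was checked on simulated intervals. The members and lists were chosen with earlier results of these data known, and the stretches around PPM1A, SIX3, CAMKMT and MNAT1 were set after their values were seen. Named contacts were those called in 3 or more conditions and the 3 with the largest summed score per member, of which some, with some list genes, are not reported here, and others named were chosen after their values were seen. Partner genes with a change of 5 or more contacts were named, and likeness was ranked by Pearson's r. With 1 pooled column per condition no test was run. Alternatives were thresholds of 3 and 10, windows of 0 and 5 kb, pairs counted once, no bait-to-bait contacts, equal numbers of calls (18272 per condition), quantile-normalised scores, and other ends within 10 kb counted once. Python 3.11.15, pandas 2.3.3, numpy 2.4.6, scipy 1.17.1 and matplotlib 3.10.9 were used.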

Additional observations from a re-analysis of the deposited data

How the results depend on the processing

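No paired analysis was possible because both libraries of a condition share 1 score column. The day 14 excess of the family over naive cells, 21 contacts, stayed positive in every alternative run, at 32 with a threshold of 3 and 3 with a threshold of 10, and between 14 and 25 otherwise. The difference of H9 from day 14, 2 contacts, had no stable direction: it was -3 at thresholds of 3 and of 10, -1 with equal numbers of calls, -1 with quantile-normalised scores, -1 without bait 16062 (an alternative added after seeing the data), 7 with a 5 kb window, 4 with pairs counted once and 6 without bait-to-bait contacts. The difference of DE from day 14, -6, was -3 at a threshold of 10, -2 with the gene body alone, -3 with a 5 kb window, -3 with pairs counted once, -1 without bait-to-bait contacts and -11 with equal numbers of calls. That of NE, -5, was -3 at a threshold of 10, -1 with the gene body alone, -2 with a 5 kb window, -2 with pairs counted once, 0 without bait-to-bait contacts, -13 with equal numbers of calls and -14 with quantile-normalised scores. The 6 partner genes with more contacts at day 14 than in naive cells were 1 at a threshold of 10. SIX2 had -1 contacts in H9 relative to day 14 at thresholds of 3 and of 10, in place of 2, and SIX4 had 2 at a threshold of 3 and 1 with a 5 kb window at day 14 relative to naive cells, in place of -1. For SIX6 the difference between day 14 and naive cells lay between 2 (threshold of 10) and 22 (5 kb window), and its differences of DE and NE from day 14 stayed negative in every alternative run. At a threshold of 10, SIX3 and SIX4 differed by 0 from day 14 in H9, DE and NE, and SIX2 by -1 in DE and NE. The SIX3 difference of DE was 0 at a threshold of 3, and the SIX4 difference of H9 was 0 with a 5 kb window. Apart from what the construction of an alternative shows, the cause was not tested.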

Other observations

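Contacts of the 4 genes with other chromosomes stand outside the comparisons above. They numbered 7 at SIX2, 145 at SIX3, 111 at SIX4 and 133 at SIX6, of which 130 of the 133 at SIX6 came from baits there. SIX6 had 7 such calls in naive cells, 5 on day 14, 8 in H9 cells, 43 in DE cells and 36 in NE cells. SIX3 had 7, 4, 10, 49 and 49, and SIX4 had 4, 3, 9, 40 and 24 in the same conditions. Over all baits, calls between chromosomes numbered 29766, 31432, 38446, 187492 and 155291, so DE and NE had the higher counts over the whole matrix too.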
